A study of Mus musculus with 8 samples.

Results

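The genes described here encode transcription factors that pattern the embryo and specify neural cells: the homeobox genes (Hox, Pax, LIM, NK, POU, Meis and Pbx, Engrailed, Irx and others), the Sox genes, and the proneural, Hes, Hey and Id genes of the basic helix-loop-helix (bHLH) class. They were chosen by gene symbol only, from the annotation of the array, by a rule that uses no measured value. The choice gave 150 probe sets for 121 genes, of 12422 probe sets tested and 8251 genes named by probe sets with a single symbol. A probe set is a group of short oligonucleotides that together read 1 transcript. Of the 121 genes, 22 were read by several probe sets and 99 by 1, and probe sets of 1 gene share their source. For 3 of the genes (Hoxa11os, Dlx1as and Dlx6os2, 5 probe sets) the symbol is that of an RNA antisense to a developmental gene.

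Whole spinal cords were compared between mice with experimental autoimmune encephalomyelitis (EAE), an inflammatory demyelinating disease used as a model of multiple sclerosis, and control mice. The EAE group had 5 arrays and the control group 3, each array holding RNA pooled from 2 animals, so that 10 EAE mice and 6 control mice were measured. All were female SJL/J mice, given in the labels as 8 to 12 weeks old and in the methods as the lower of those ages. EAE mice were immunised with a peptide of the myelin proteolipid protein (PLP) and were taken between day 12 and day 17. By the methods, the peptide was given in complete Freund's adjuvant, and pertussis toxin was injected as well. Disease was of grade 2.5 in the labels, while the methods give a range from that grade upward. Control mice received vehicle. EAE mice were also injected intravenously with murine serum albumin before they were killed, which is not stated for control mice. Immunisation, with its adjuvant and toxin, and this injection therefore cannot be told apart. The arrays were made in 5 batches that carry the replicate number. Both groups were present in batches 1 to 3, with 1 array each, whereas batches 4 and 5 had no control array.

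Homeodomain and Sox proteins bind DNA by short, similar motifs and gain specificity from partners, as Hox proteins do with the Pbx and Meis cofactors. Proneural bHLH proteins act as dimers with E proteins on E boxes, Hes and Hey proteins repress transcription downstream of Notch, and Id proteins lack a DNA binding region and hold E proteins in inactive dimers. In the spinal cord, Hox genes are known for setting the identity of neurons along the head to tail axis, and part of that expression lasts into adult life. Sox10 and Nkx2-2 belong to the oligodendrocyte lineage, whose mature cells make myelin.

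Most of these genes gave a low signal on the array. The deposited values are log2 signals, so that a difference of 1 is a factor of 2. The median signal of the 150 probe sets, averaged over the 8 arrays, was 5.52 on the log2 scale, against 6.12 over all 12422 probe sets, and only 41 of the 150 lay above that overall median. Signals of different probe sets cannot be ranked as transcript levels, because each has its own oligonucleotides.

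Spinal cords with EAE had lower signals for a group of Hox genes of the middle of the clusters, for their cofactors Pbx3 and Meis1, and for Id4, Nkx2-2, Sox10 and Hey1. At an adjusted p under 0.05 (limma with the batch as a term, Benjamini-Hochberg over all 12422 probe sets), 22 probe sets of 19 genes were lower in EAE than in control cords and 1, for Id1, was higher. The lower ones made up 14.7% of the 150 probe sets, beside 11.4% of all probe sets called lower, and the single higher one made up 0.667%, beside 8.26% of all probe sets called higher. The share called lower was therefore near that of the whole array. Called differences were between -0.88 and -0.32 on the log2 scale, which left between 54.5 and 80.0% of the control signal, so that no probe set was at 50% or less. The fit has 2 residual degrees of freedom, and without limma's pooling of variances across probe sets 0 members passed in either direction. In these whole cords, fewer cells of a type and less RNA per cell cannot be told apart.

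The shares differed with signal. Among the 41 probe sets above the median signal, 18 (43.9%) were lower in EAE and 0 were higher, beside 18.6% lower and 10.9% higher among all 6211 probe sets of such signal. Among the 109 that were not above it, 4 (3.67%) were lower and 1 (0.917%) was higher, beside 4.14% lower and 5.57% higher among all such probe sets. The plot of signal and difference shows this spread.

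**Figure D1:**
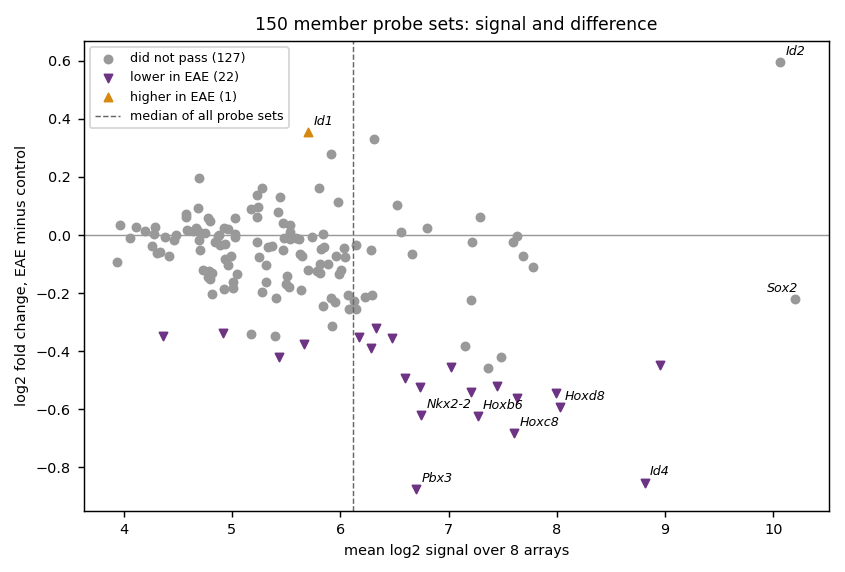
Each of the 150 probe sets is a point, with its mean log2 signal over 8 arrays on the x axis and its log2 fold change, EAE minus control, on the y axis; the dashed line is the median signal of all 12422 probe sets. Of the 22 probe sets called lower (triangles pointing down), 18 lie right of the line, and the 1 called higher, Id1, lies left of it.

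Without the model, the arrays can be compared directly. For 39 of the 150 probe sets (26%) every EAE array was below every control array, beside 15.1% of all probe sets, and for 2 (1.33%), Lhx6 and Gbx2, every EAE array was above, beside 10.9% of all. Of the 22 called lower, 20 were without overlap between the groups, the exceptions being En2 and Sox10, and each of the 22 was lower in EAE in all 3 batches that held both groups. Because the 22 were called on differences between these same arrays, these counts are no separate check of them. On average over the 150 probe sets, the EAE arrays lay at -0.126 to -0.107 from the control mean on the log2 scale, and the control arrays at -0.015 to 0.013.

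**Figure D2:**
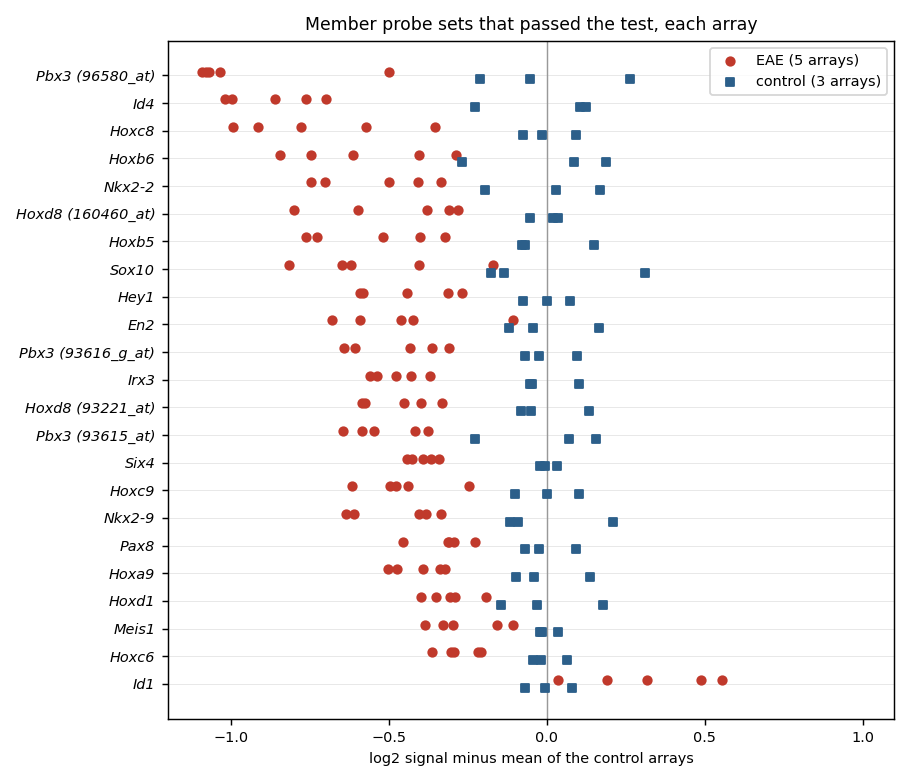
Log2 signal of each array minus the mean of the control arrays (x axis) for the 23 probe sets that passed the test, ordered by fold change, with EAE arrays as circles and control arrays as squares. EAE and control arrays are apart in 20 of the 22 rows called lower, and overlap for Sox10, En2 and the one called higher, Id1.

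Of the Hox clusters, 40 probe sets for 32 genes were measured, and 9 probe sets of 8 genes fell while none rose. They were Hoxa9, Hoxb5, Hoxb6, Hoxc6, Hoxc8, Hoxc9, Hoxd1 and Hoxd8, the last by both of its probe sets. The 9 were 22.5% of the 40 probe sets, beside 11.4% of all probe sets called lower and 8.26% of all called higher. Relative to the control mean, the mean log2 signal of the 40 probe sets was -0.22 to -0.15 on the EAE arrays and -0.018 to 0.020 on the control arrays. All 4 clusters held a gene that fell: 1 of 14 probe sets in the Hoxa cluster, 2 of 10 in Hoxb, 3 of 5 in Hoxc and 3 of 9 in Hoxd, the other 2 probe sets being those of the antisense RNA Hoxa11os.

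Hoxc8, which takes part in setting the identity of motor neurons at brachial and thoracic levels, had log2 signals of 7.28, 7.14, 7.70, 7.48 and 7.06 in EAE cords, against 8.15, 7.98 and 8.04 in control cords. All EAE arrays were below all control arrays, and the third EAE array was the nearest to them. The log2 fold change was -0.68 ± 0.125 (SE), or 62.3% of control, with an adjusted p of 0.0225. Hoxb6, a neighbour of the same middle region in the Hoxb cluster, had log2 signals of 6.79, 7.23, 7.02, 6.88 and 7.34 in EAE cords and 7.36, 7.72 and 7.82 in control cords. The groups were apart only narrowly, by the fifth EAE and the first control array, which came from different batches. Within batches 1, 2 and 3 the difference was -0.58, -0.49 and -0.80, and the log2 fold change was -0.62 ± 0.0855 (SE) with an adjusted p of 0.0105. With the batch term dropped and EAE arrays 1 and 4 left out, Hoxb6 did not pass (adjusted p = 0.0804).

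Hoxb5, next to Hoxb6 in its cluster, had log2 signals of 7.21, 7.57, 7.46, 7.25 and 7.65 in EAE cords and 7.91, 7.90 and 8.13 in control cords. No EAE array reached a control array, and the log2 fold change was -0.56 ± 0.0975 (SE; adjusted p = 0.0197). Hoxd8 was measured by 2 probe sets. The brighter had log2 signals of 7.94, 7.72, 7.52, 8.04 and 8.01 in EAE cords, against 8.27, 8.35 and 8.34 in control cords, with a log2 fold change of -0.59 (adjusted p = 0.0234). The dimmer one gave -0.45 (adjusted p = 0.0420, or 0.0540 after a further quantile normalization), and in both the groups were apart. The remaining Hox genes that fell did so by less. Hoxc9, which takes part in thoracic motor neuron identity, had log2 signals of 6.32, 6.09, 6.12, 6.07 and 5.95 in EAE cords and 6.56, 6.67 and 6.46 in control cords (log2 fold change -0.39, adjusted p = 0.0396). Its paralog Hoxa9 had 6.09, 6.10, 6.03, 5.92 and 5.95 in EAE cords and 6.39, 6.33 and 6.56 in control cords (log2 fold change -0.35, adjusted p = 0.0464). Neither gene showed overlap. Hoxc6, known for its part in brachial motor columns, gave -0.32 (adjusted p = 0.0296), and Hoxd1, an anterior Hox gene, gave -0.35 at one of its probe sets (adjusted p = 0.0391). The Hoxd1 probe set that passed had a low mean log2 signal of 4.36 over the 8 arrays, and the other gave -0.14 (adjusted p = 0.241). Without the batch term and EAE arrays 1 and 4, the first did not pass either (adjusted p = 0.102). The probe set of Hoxc9 and the Hoxd1 probe set that passed are of classes whose suffix on the array marks probes that related transcripts may share, so their signals may hold more than the named gene.

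By paralog group, the number that gives a Hox gene's place from the head end to the tail end of its cluster, 8 of the 9 probe sets that fell belonged to groups 5 to 9. Groups 5 to 9 had 18 probe sets (8 lower, 44.4%), groups 1 to 4 had 12 (1 lower) and groups 10 to 13 had 8 (none lower). Signal differed in the same way: 12 of the 18 probe sets of groups 5 to 9 were above the median signal of the array, against 0 of the 8 of groups 10 to 13, whose signals were 3.97 to 5.92. The 8 lower ones of groups 5 to 9 had signals of 6.17 to 8.03, all above that median. Thus 8 of the 12 probe sets of groups 5 to 9 above the median were lower. The 41 members above it, of which 43.9% were lower, include these 12. Of all probe sets above it, 18.6% were lower. The mean of groups 5 to 9 on the EAE arrays was -0.38 to -0.22 relative to the control mean, that of groups 1 to 4 was -0.109 to -0.075 and that of groups 10 to 13 was -0.195 to -0.106. Differences between paralog groups were not tested, and the part of signal in them was not tested.

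**Figure D3:**
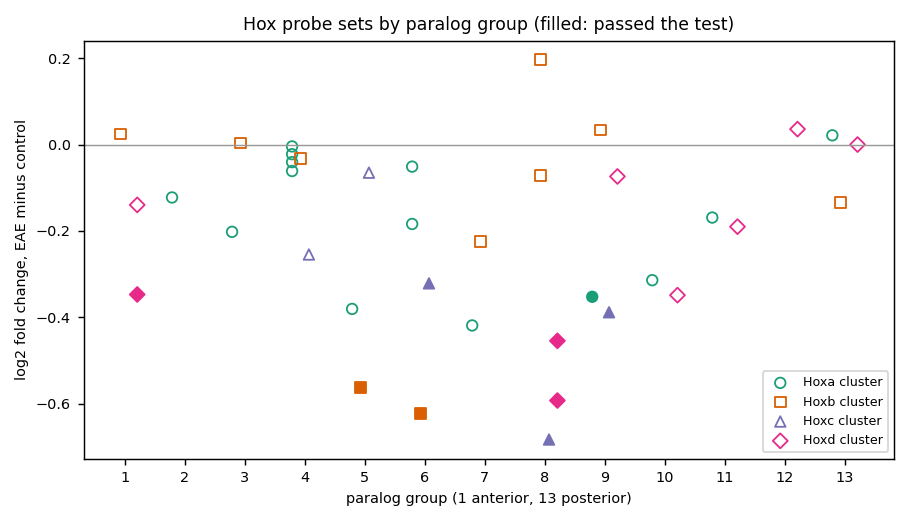
Log2 fold change, EAE minus control (y axis), of the Hox probe sets by paralog group (x axis), with a symbol for each cluster, filled where the probe set passed the test. Filled symbols lie at groups 5, 6, 8 and 9, with 1 at group 1.

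Within groups 5 to 9, 10 probe sets did not pass, with log2 fold changes of -0.42 to 0.20 (adjusted p = 0.0925 to 0.929). Hoxa7 had the largest decrease among them, with log2 signals of 7.61, 7.22, 7.35, 7.05 and 7.19 in EAE cords and 7.99, 8.04 and 7.40 in control cords, and a difference of -0.42 (adjusted p = 0.133, or 0.0463 with batch as a random block). The third control array lay among the EAE arrays. Hoxb8, the paralog of Hoxc8 and Hoxd8, gave -0.07 and 0.20 at its 2 probe sets (adjusted p = 0.600 and 0.564), and Hoxb7 gave -0.22 (adjusted p = 0.141). Outside these groups, the posterior gene Hoxd10, which takes part in lumbar motor neuron identity, gave -0.35 with no overlap (adjusted p = 0.0634), as did Hoxc4 with -0.25 (adjusted p = 0.0522). Hoxb8, Hoxb7, Hoxd10 and Hoxc4 were named after their values were seen.

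The Meis and Pbx cofactors, which bind DNA together with Hox proteins, had the largest mean decrease of the families listed here. All 7 probe sets had a log2 fold change below 0, beside 62.4% of all probe sets. Of them, 4 passed, for Pbx3 (3 probe sets) and Meis1. These were 57.1% of the 7, beside 11.4% of all probe sets called lower. Pbx3 thus supplied 3 of the 7 values in the family mean. The 3 probe sets that did not pass gave -0.23 to -0.006 (adjusted p = 0.0650 to 0.972). Relative to the control mean, the family mean was -0.457 to -0.273 on the EAE arrays and -0.036 to 0.054 on the control arrays. The most changed Pbx3 probe set had log2 signals of 6.26, 6.80, 6.20, 6.22 and 6.22 in EAE cords, against 7.24, 7.08 and 7.56 in control cords. The groups were apart, with the second EAE array nearest to the control arrays. Its log2 fold change was -0.88 ± 0.206 (SE), or 54.5% of control (adjusted p = 0.0435), and the difference within batches 1, 2 and 3 was -0.98, -0.29 and -1.36.

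The other Pbx3 probe sets gave smaller values of the same sign. One had log2 signals of 7.13, 7.43, 7.10, 7.37 and 7.30 in EAE cords and 7.71, 7.67 and 7.83 in control cords (log2 fold change -0.52, adjusted p = 0.0339). The brightest had 8.72, 8.90, 8.86, 8.63 and 8.69 in EAE cords and 9.34, 9.43 and 9.05 in control cords (log2 fold change -0.45, adjusted p = 0.0415). Neither showed overlap. After a further quantile normalization the first and the brightest of the 3 did not pass (adjusted p = 0.0514 and 0.0679). Meis1 had log2 signals of 4.78, 4.75, 4.69, 4.92 and 4.97 in EAE cords and 5.06, 5.11 and 5.05 in control cords, which were apart by less than 0.1 at the fifth EAE array, and its log2 fold change was -0.34 (adjusted p = 0.0254, or 0.0774 without the batch term and EAE arrays 1 and 4). The Meis1 probe set and the second of the Pbx3 probe sets are also of classes marked for probes that related transcripts may share. Meis2, a related cofactor named after its values were seen, was without overlap but did not pass (-0.23, adjusted p = 0.0650).

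Among the 4 Id proteins, 1 fell, 1 rose and the rest did not pass. Each was 25% of the 4 probe sets, beside 11.4% of all probe sets called lower and 8.26% called higher. Id4, which in neural tissue is known for holding back oligodendrocyte differentiation, had log2 signals of 8.65, 8.36, 8.49, 8.59 and 8.33 in EAE cords, against 9.46, 9.48 and 9.12 in control cords. The highest EAE array was well below the lowest control array. The means were 8.48 ± 0.14 (SD, n = 5) and 9.35 ± 0.20 (SD, n = 3), and the log2 fold change was -0.85 ± 0.110 (SE), or 55.4% of control (adjusted p = 0.00885). Within batches 1, 2 and 3 it was -0.80, -1.12 and -0.63, and an exact permutation test (56 ways to regroup the 8 arrays) gave p = 0.0179, the smallest it can give. Id4 was the only one of the 23 probe sets called that also passed when any 1 array was left out (adjusted p up to 0.0400). Leaving out EAE array 4 or 5 cannot change this fit, because their batches held no control array. Leaving out either array of batch 1, 2 or 3 gives the same fit, with 1 residual degree of freedom.

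Id1, known as a target of BMP signalling and as an endothelial Id gene, was the single member that rose. Its log2 signals were 5.70, 5.82, 6.06, 5.54 and 5.99 in EAE cords and 5.50, 5.44 and 5.58 in control cords, so that the fourth EAE array lay within the control range. The log2 fold change was 0.35 ± 0.0812 (SE), or 128% of control (adjusted p = 0.0406), with an exact permutation p of 0.0714. The call was lost without the batch term (adjusted p = 0.101), with batch as a random block (0.0574), after a further quantile normalization (0.0611), and without an array of batch 2 (0.153) or batch 3 (0.185).

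Id2, the second brightest of the 150 probe sets, had log2 signals of 10.63, 10.14, 9.98, 10.30 and 10.51 in EAE cords and 9.52, 10.14 and 9.31 in control cords. The second control array matched the second EAE array, and the others were apart. The difference of 0.60 (95% interval 0.05 to 1.14) had an adjusted p of 0.125, and within batches 1, 2 and 3 it was 1.11, 0.00 and 0.67. Without an array of batch 2, Id2 passed with a log2 fold change of 0.89 (adjusted p = 0.0367), and with batch as a random block it passed with 0.64 (adjusted p = 0.0414). Id3 had log2 signals of 5.91, 6.19, 7.19, 6.21 and 6.67 in EAE cords and 6.05, 6.14 and 6.12 in control cords, a wide EAE spread around a narrow control range (log2 fold change 0.33, adjusted p = 0.436).

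**Figure D4:**
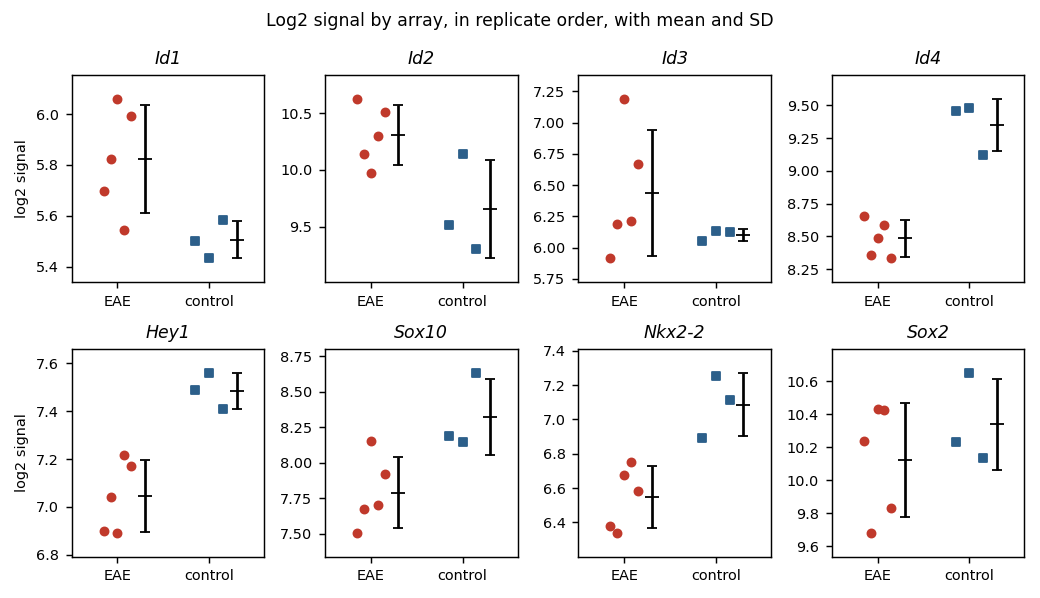
Log2 signal (y axes, which do not start at 0) of 8 genes on each array, EAE as circles and control as squares in replicate order, each group with its mean and SD beside it. Id4, Hey1 and Nkx2-2 are lower on every EAE array than on any control array, while the groups overlap for Id1, Id2, Id3, Sox10 and Sox2.

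Of the Sox factors, 22 probe sets for 13 genes were measured and 1 fell (4.55%, beside 11.4% of all probe sets called lower). Sox10, which drives the expression of myelin genes in oligodendrocytes, had log2 signals of 7.51, 7.67, 8.15, 7.70 and 7.92 in EAE cords and 8.19, 8.15 and 8.63 in control cords at its brighter probe set. The third EAE array was level with the second control array, so the groups overlapped. Within batches 1, 2 and 3 the difference was -0.68, -0.47 and -0.48, and the log2 fold change was -0.55 ± 0.0757 (SE), or 68.5% of control (adjusted p = 0.0109). The call was lost when the batch term was dropped (adjusted p = 0.0534) and without an array of batch 3 (0.0672), and the dimmer probe set did not pass (-0.25, adjusted p = 0.120).

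Sox2, a factor of neural stem cells that astrocytes also express, was the brightest of the 150 probe sets. Its log2 signals were 10.24, 9.68, 10.43, 10.42 and 9.83 in EAE cords and 10.23, 10.65 and 10.13 in control cords, which overlapped, and the difference of -0.22 had a 95% interval of -0.86 to 0.42 (adjusted p = 0.628). It changed sign, to 0.16, without an array of batch 2. This probe set belongs to a class whose oligonucleotides did not meet the array maker's usual selection rules.

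Among 8 NK homeodomain factors, Nkx2-2 and Nkx2-9 fell (25%, beside 11.4% of all probe sets called lower). Nkx2-2, a factor of ventral interneurons and of differentiating oligodendrocytes, had log2 signals of 6.38, 6.34, 6.68, 6.75 and 6.58 in EAE cords and 6.89, 7.26 and 7.11 in control cords. The groups were apart, and the log2 fold change was -0.62 ± 0.113 (SE), or 65.1% of control (adjusted p = 0.0221). Nkx2-9, which is expressed in the ventral neural tube, had log2 signals of 5.62, 5.55, 5.57, 5.35 and 5.32 in EAE cords and 6.17, 5.87 and 5.84 in control cords, with a log2 fold change of -0.38 (adjusted p = 0.0367). Nkx6-2, a further oligodendrocyte factor and the brightest of the family, had 7.31, 7.56, 7.53, 7.81 and 8.09 in EAE cords and 7.37, 7.82 and 7.28 in control cords, which overlapped (log2 fold change -0.02, adjusted p = 0.919).

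Of 27 probe sets for other homeobox factors, 3 fell, 1 each for En2, Irx3 and Six4. They were 11.1% of the 27, near the 11.4% of all probe sets called lower. En2, known from the patterning of midbrain and cerebellum, had log2 signals of 6.56, 6.59, 6.34, 6.91 and 6.42 in EAE cords and 6.97, 7.18 and 6.90 in control cords, overlapping by a narrow margin at the fourth EAE array (log2 fold change -0.52, adjusted p = 0.0103). Irx3, a factor of neural tube patterning, had 6.53, 6.34, 6.36, 6.42 and 6.47 in EAE cords and at least 6.85 in each control cord pool, with no overlap (log2 fold change -0.49, adjusted p = 0.0216). Six4, known from muscle and sensory development, had log2 signals of 5.25, 5.24, 5.29, 5.32 and 5.34 in EAE cords and 5.71, 5.66 and 5.67 in control cords at the probe set that passed (log2 fold change -0.42, adjusted p = 0.0136). All 3 Six4 probe sets were without overlap, and the others gave -0.22 and -0.12 (adjusted p = 0.146 and 0.334). Six2, a kidney progenitor factor and the brightest of these probe sets, gave 0.02 (adjusted p = 0.857), and Gbx2, a hindbrain factor, was above control on every EAE array but did not pass (0.28, adjusted p = 0.0702).

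Of the 7 Pax factors, 1 fell (14.3%, beside 11.4% of all probe sets called lower). It was Pax8, which is known from the thyroid and from inhibitory spinal interneurons. Its log2 signals were 6.22, 6.38, 6.36, 6.37 and 6.45 in EAE cords and 6.65, 6.61 and 6.77 in control cords (log2 fold change -0.35, adjusted p = 0.0325), with no overlap. Pax4, an islet factor and the brightest Pax probe set, gave 0.10 (adjusted p = 0.465). None of 8 LIM homeodomain probe sets passed. Every EAE array was below every control array for 4 of them (50%), beside 15.1% of all probe sets. None of the 8 was above the median signal of the array, and among all such probe sets that share was 10.5%. Lhx6, a factor of forebrain interneurons and the brightest of the 8, was above control on every EAE array with 0.13 (adjusted p = 0.323). None of 11 POU probe sets passed in the fit with the batch term over all probe sets. The brightest, for the neural factor Pou6f1, had log2 signals of 7.07, 7.30, 7.04, 7.21 and 7.49 in EAE cords and 7.44, 7.50 and 7.85 in control cords (-0.46, adjusted p = 0.0709). It passed with batch as a random block (-0.39, adjusted p = 0.0451) and in a fit of probe sets above the median signal only (adjusted p = 0.0423), while the gene's other probe sets gave 0.16 and -0.01 (adjusted p = 0.334 and 0.945).

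Of the Hes and Hey repressors, Hey1 fell (14.3% of 7 probe sets, beside 11.4% of all called lower) and the other 6 probe sets did not pass. Hey1, a Notch target in vessels and neural progenitors, had log2 signals of 6.90, 7.04, 6.89, 7.22 and 7.17 in EAE cords, against 7.49, 7.56 and 7.41 in control cords. The groups were apart, the differences within batches 1, 2 and 3 were close to each other at -0.59, -0.52 and -0.52, and the log2 fold change of -0.54 ± 0.0641 (SE), or 68.8% of control, had the lowest adjusted p of the 150 probe sets (0.00710). Without an array of batch 3 the adjusted p was 0.0569. Hes1, the best known Notch target of the group, gave 0.04 (adjusted p = 0.799). None of 9 proneural probe sets passed, and the brightest, for the cortical neuron factor Neurod2, gave -0.06 (adjusted p = 0.627). No Olig gene was among the members.

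The plot of family means shows these groups side by side. Family means were lower on every EAE array than on every control array in the Hox, Meis and Pbx, LIM, NK, other homeobox, Sox, proneural, Hes and Hey, and POU groups, and overlapped in the Pax and Id groups. The POU means were barely apart, at -0.0115 on the highest EAE array and -0.0091 on the lowest control array. In the Hes and Hey group only 3 of 7 probe sets had a log2 fold change below 0, with a median of 0.003. Over the whole array, 62.4% of probe sets had a log2 fold change below 0, with a median of -0.046. Over the 127 probe sets that did not pass, log2 fold changes were -0.46 to 0.60, and for 115 of them the 95% interval lay within 0.5 of 0 on both sides.

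**Figure D5:**
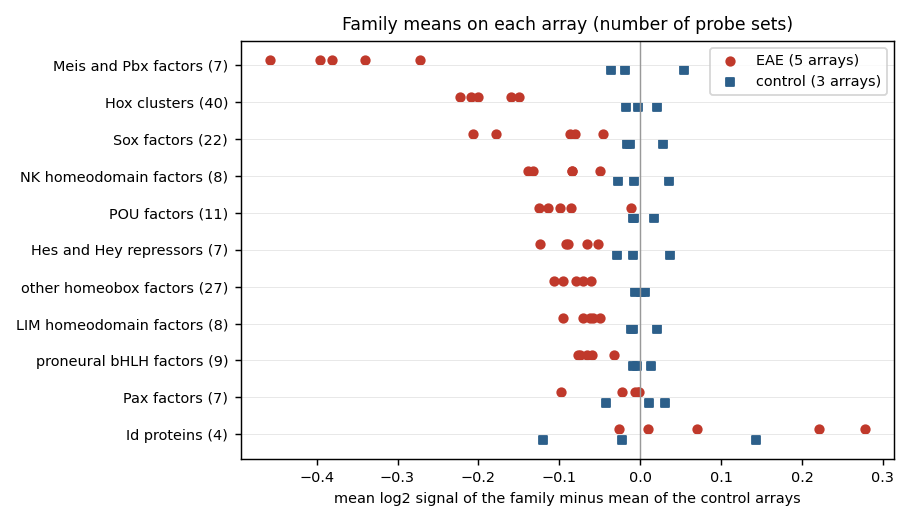
Mean log2 signal of each family on each array minus the mean of the control arrays (x axis), with the number of probe sets in parentheses, EAE as circles and control as squares. The Meis and Pbx factors lie lowest in EAE, from -0.457 to -0.273 relative to control, and the Id proteins and Pax factors overlap between the groups.

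To show the sequence at the starts of genes whose signal fell, 250 bases before the start were taken from RefSeq (mouse build GRCm38.p6) for 4 of them: Id4, which passed with any one array left out, Hoxd8 and Hoxa9 from the middle of the Hox clusters, and Nkx2-2 with the most E boxes of these. They are written 5′ to 3′ on the strand of the gene, with E boxes (CANNTG, the motif of bHLH dimers) in capitals. Their places are chr13:48260866-48261115 (plus strand) for Id4, chr2:74704365-74704614 (plus) for Hoxd8, chr6:52227371-52227620 (minus) for Hoxa9 and chr2:147186403-147186652 (minus) for Nkx2-2.
Id4: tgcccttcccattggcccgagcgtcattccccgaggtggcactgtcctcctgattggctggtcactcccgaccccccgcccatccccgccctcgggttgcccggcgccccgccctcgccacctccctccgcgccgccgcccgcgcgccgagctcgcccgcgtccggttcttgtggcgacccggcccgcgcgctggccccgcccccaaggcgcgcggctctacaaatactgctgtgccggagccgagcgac
Hoxd8: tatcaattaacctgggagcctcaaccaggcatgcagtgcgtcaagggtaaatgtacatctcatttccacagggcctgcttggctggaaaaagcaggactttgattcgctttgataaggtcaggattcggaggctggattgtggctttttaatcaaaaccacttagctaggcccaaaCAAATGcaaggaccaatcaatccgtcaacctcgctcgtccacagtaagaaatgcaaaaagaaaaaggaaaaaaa
Hoxa9: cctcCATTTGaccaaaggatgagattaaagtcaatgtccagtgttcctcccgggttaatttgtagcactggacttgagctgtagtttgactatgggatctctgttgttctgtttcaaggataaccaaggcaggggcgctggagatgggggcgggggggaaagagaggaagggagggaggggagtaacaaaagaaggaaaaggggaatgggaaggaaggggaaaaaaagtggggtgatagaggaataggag
Nkx2-2: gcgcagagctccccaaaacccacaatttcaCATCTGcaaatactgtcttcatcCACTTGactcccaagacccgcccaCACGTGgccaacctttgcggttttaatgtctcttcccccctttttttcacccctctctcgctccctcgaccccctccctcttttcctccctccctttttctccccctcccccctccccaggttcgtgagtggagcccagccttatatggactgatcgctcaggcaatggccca
The Id4 stretch held 0 E boxes and was 75.6% G and C, Hoxd8 and Hoxa9 held 1 E box each, and Nkx2-2 held 3. Of the 19 genes that fell, 10 had a start in the RefSeq table, with 11 starts in all, and 54.5% of these held an E box, beside 60.2% of 103 starts of 86 member genes and 66.2% of all 32851 starts. The core Sox motif ACAAT, searched on both strands, was in 36.4% of the 11, 23.3% of the 103 and 27.7% of all. The Pbx and Hox motif TGATNNAT, also on both strands, was in 0 of the 11, 4.85% of the 103 and 7.68% of all, and no match overlapped an E box in the 11. A match is a run of letters only, and no binding was measured.

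Genes that act with these factors were read from the same fit, with the brightest probe set for each gene. Over the whole array, 11.4% of probe sets were called lower and 8.26% higher, with a median log2 fold change of -0.046. The median was -0.043 for the Notch genes below, -0.007 for BMP, -0.12 for Polycomb and Hox regulators and -0.37 for myelin genes. None of 3 E proteins and none of 4 Groucho corepressors, which Hes and Hey proteins recruit, passed. Of 15 Notch pathway genes, Rfng, a glycosyltransferase that modifies Notch, fell by 0.39 (adjusted p = 0.0252) and Dtx1, a regulator of Notch signalling, fell by 0.49 (adjusted p = 0.0258), and none rose. Of 19 genes of BMP signalling, which induces Id genes, Smad1, a transducer of the pathway, rose by 0.49 (adjusted p = 0.0381) and Eng, an endothelial co-receptor, by 0.39 (adjusted p = 0.0331), while Smad7, its inhibitor, fell by 0.68 (adjusted p = 0.0108). Of 14 Polycomb and Hox regulators, Ezh2, a histone methyltransferase, rose by 0.39 (adjusted p = 0.0454), while the Polycomb genes Bmi1 and Phc1 fell, with log2 fold changes of -0.67 and -0.42 (adjusted p = 0.00437 and 0.0221), and Kmt2a, which maintains Hox expression, fell by 0.33 (adjusted p = 0.0481). Of 9 myelin genes known as targets of Sox10 or Olig factors, Mog, Mal and Ugt8a fell, with log2 fold changes of -0.89, -0.53 and -1.63 (adjusted p = 0.00157, 0.0183 and 0.00383) and none rose.

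Markers of the cells that make up the cord moved as well. Among 14 markers of macrophages and microglia, 13 passed as higher in EAE and none as lower, and their mean log2 signal was 8.37 to 8.93 on EAE arrays and 6.29 to 6.41 on control arrays. T cell markers (5 of 11) and neutrophil markers (5 of 9) were also called higher, and none of 7 B cell markers passed. Neuron markers were lower in 6 of 12 cases (mean log2 signal 8.85 to 9.40 on EAE arrays and 9.71 to 9.81 on control arrays), spinal interneuron markers in 5 of 7 (8.17 to 8.48 in EAE and 8.74 to 8.75 in control) and motor neuron markers in 1 of 3 (6.82 to 7.37 in EAE and 7.43 to 7.62 in control). Beside Sox10 and Nkx2-2, markers of oligodendrocytes and myelin were lower in 3 of 8 cases (8.74 to 9.18 in EAE and 9.41 to 9.68 in control). Those 3 were Mog, Mal and Ugt8a, the same measurements given above for targets of Sox10 or Olig factors. Of 4 markers of oligodendrocyte progenitors, Bcan was lower and Vcan higher. The mean log2 signal of the 4 was 8.22 to 8.36 on EAE arrays and 8.57 to 8.62 on control arrays. Of 9 astrocyte markers Gfap was higher and S100b lower. Of 10 endothelial markers Cdh5 and Vwf were higher and 8 did not pass, with a median log2 fold change of 0.016 over the list. Dcn, a marker of fibroblasts and meninges, was higher, while the 2 ependymal markers did not pass. Pvalb of the skeletal muscle list was lower, and it is also 1 of the 5 lower spinal interneuron markers. The part of cell composition in the differences of the factors was not tested.

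RNA quality, as the 3′ minus 5′ log2 signal of the Gapdh control probes, was 1.46 and 2.07 on EAE arrays 1 and 4, 0.46 to 0.78 on the other EAE arrays and 0.53 to 0.97 on the control arrays. The actin control probes gave 2.35 and 2.79 on EAE arrays 1 and 4, and 1.11 to 1.83 on the other EAE arrays. On the control arrays actin gave 1.62 to 2.29, so that by actin EAE array 1 was close to the highest control array. In a fit without the batch term, 22 of the members were lower when EAE arrays 1 and 4 were left out, against 31 with all arrays in the same kind of fit. The smaller fit had 4 residual degrees of freedom and the larger 6. Of those 22, 18 were among the 22 called with the batch term. The part of RNA quality in the differences was not tested. With the batch term, only batches 1 to 3 inform the difference, and leaving out EAE array 4 or 5 left 22 lower. Leaving out either array of batch 1, 2 or 3 gave 12, 7 and 2 lower, of which 10, 7 and 2 were among the 22. The 2 without an array of batch 3 were Id4 and Hoxc8.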

How the data were processed

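RNA from whole spinal cord was hybridised to 8 one-colour Affymetrix MG U74Av2 arrays. The authors deposited log2 values made with Partek (RMA with quantile normalization between arrays and an adjustment for GC content); versions are not given in the sources used here. RMA draws low signals together, so that differences of dim probe sets may be understated, and the number of arrays limits the precision. Array medians were 6.08 to 6.13.

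Members were probe sets with a single annotation symbol that matched a pattern of developmental factor names; 1 item that matched is not reported here. Members and lists were chosen with earlier results of these data known. Of 12488 probe sets, 66 Affymetrix controls were left out, 10833 of the rest had 1 symbol, 396 several and 1193 none. All 150 members matched RefSeq by Entrez identifier.

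Treatment and batch, the terms of the study's own model, were fitted on all 12422 probe sets with limma (version 3.58.1, R version 4.3.3; lmFit, then eBayes; two-sided, Benjamini-Hochberg, threshold 0.05), with 2 residual and 3.05 prior degrees of freedom. The labels give the replicate number as the batch, so same-numbered arrays were paired by it; deviations of the EAE and control array correlated at 0.302, -0.231 and 0.412 in batches 1 to 3. Exact permutation tests over 56 regroupings were two-sided and can reach p = 0.0179. Arrays are separate pools of animals.

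Named were all probe sets that passed, the brightest of each family, the 3 largest differences that did not pass, and all probe sets of a named gene that disagreed. Hes1, Id3, Gbx2, Meis2, Hoxb7, Hoxb8, Hoxc4 and Hoxd10 were added after their values were seen. The alternatives tried were batch as a random block or left out, no moderation, an intensity trend, median centring, further quantile normalization, brighter probe sets only, gene means, another threshold and leaving out each array. The fit was tested on simulated data. Figures were drawn with matplotlib 3.10.9.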

Additional observations from a re-analysis of the deposited data

Results flagged for a closer look

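Among 43 groups of 5 EAE values that were tested for a single distant array, 2 had one, and chance marks about 1 in 20 groups. The most changed Pbx3 probe set had a log2 signal of 6.80 on EAE array 2, against 6.20 to 6.26 on the other EAE arrays and 7.08 to 7.56 on the control arrays, so that this array lay between the rest of its group and the controls. The mean of the 7 Pax probe sets was 5.52 on EAE array 2, against 5.59 to 5.61 on the other EAE arrays and 5.57 to 5.64 on the control arrays. The reason was not tested in either case.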

How the results depend on the processing

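With the batch term left out (no replicate block), 31 members were lower and 1 higher, 21 of the lower ones being among the 22. The higher one was not Id1, which had an adjusted p of 0.101 in that fit. The counts stayed within 1.5 times those reported under an intensity trend, median centring and gene means. With batch as a random block, 34 members were lower and 2 higher, and 6 partner, upstream and target genes were higher instead of 3. Id2 was among these 2 higher members (adjusted p = 0.0414), and Id1 was not (adjusted p = 0.0574). Without moderation of the variances, 1 probe set of the array was higher and 0 lower, and 0 members, partners or markers passed in either direction, while unadjusted p under 0.05 held for 24 lower and 3 higher members. Among the members, 0 were higher after further quantile normalization and 0 with probe sets above the median signal only, and 2 were higher without the batch term and EAE arrays 1 and 4, a setting added after seeing the data. At a threshold of 0.01, 2 members were lower and 0 higher. Leaving out 1 array gave 521 to 1026 higher and 225 to 1412 lower probe sets on the whole array, 0 to 1 higher and 2 to 22 lower members, 0 to 3 higher and 3 to 9 lower partner, upstream and target genes, and 19 to 28 higher and 7 to 17 lower markers; with an array of batches 1 to 3 left out, 2 pairs remain, and fewer pairs inform the fit.

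Signs changed only for members that did not pass. Nkx6-2 was 0.17 with no replicate block, 0.13 with the random block, 0.0153 after quantile normalization, 0.0944 without EAE or control array 2 (lowest without 1 array -0.16) and 0.24 without EAE arrays 1 and 4. Neurod2 was 0.0191 with no replicate block and 0.00128 with the random block, Six2 was -0.0106 after median centring, and Sox2 was 0.16 without EAE or control array 2 (lowest without 1 array -0.48). The cause was not tested.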
